A study of Mus musculus with 16 samples.

Results

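Wt1, Vrtn, Prss44, Cebpd, Pkdcc, Mfap3l and Pdgfrl are 7 genes whose transcripts were lower in mouse embryonic stem cells after 24 h with an FGF receptor inhibitor, out of 20972 genes on the array, of which 15660 were tested. They were chosen by the size of their fall at 0h (inhibitor, no induction) relative to DMSO (vehicle), with large falls selected, so that difference is how they were picked and not a finding. Results of these data over all times were known when they were picked, so their movement after the kinase c-Raf was switched on is tested on arrays other than 0h and DMSO but is not fully independent of the choice. The arrays come from the line E14tg2a, grown on gelatin in serum with the cytokine LIF. All cells carried a c-Raf fusion that tamoxifen makes constitutively active. The 8 groups of 2 arrays each were DMSO, 0h with 250 nM PD173074 and no 4-hydroxytamoxifen (4OHT), and 6 durations of 250 nM 4OHT between 30m and 24h (with 1h, 2h, 4h and 8h in between), each after 24 h of pre-treatment with PD173074, which stayed on during the stimulation. Embryonic stem cells given 4OHT without the fusion, or 4OHT without the inhibitor, were not analysed here. Time with the inhibitor and in culture rose together with the time of 4OHT. No group had the inhibitor alone for longer than 24 h, so effects of these times and of 4OHT cannot be told apart. Whether the replicates of a group came from separate cultures is not stated in the labels. The p-values therefore reflect only the spread between arrays, which may be technical.

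FGF binding to its receptor activates Ras, which activates Raf, and Raf starts the kinase relay through Mek to Erk. Erk enters the nucleus and phosphorylates transcription factors. In mouse embryonic stem cells this relay, driven by FGF4 that the cells make themselves, is known for preparing them to leave the naive state. PD173074 blocks it at the receptor, and an inducible Raf enters it below that block.

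The 7 genes have different roles. Wt1 encodes a zinc finger transcription factor of kidney, gonad and mesothelium development, and Cebpd encodes a basic leucine zipper transcription factor of the C/EBP family. Vrtn encodes vertnin, known in the pig for an association with the number of vertebrae. Pkdcc encodes a secreted kinase that phosphorylates tyrosines of extracellular proteins. Pdgfrl encodes a protein that resembles the extracellular part of a PDGF receptor and has no kinase domain. Mfap3l encodes a membrane protein with an immunoglobulin-like domain, and Prss44 encodes a serine protease known from the testis.

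RefSeq promoter windows (GRCm38.p6) were matched for 3 of the 7 genes, Vrtn, Pkdcc and Mfap3l, with 7 windows in all. The most upstream window of each is shown. The shown windows differ in base composition, as do windows of the same gene. The signals of the 3 genes all had positive differences between 24h and 30m. That of Vrtn did not pass the threshold of 0.05 used below (limma adjusted p = 0.0594). A relation of base composition to the signals was not tested. The 250 bases before the annotated start are given 5′ to 3′ on the + strand, with CpG dinucleotides in capitals.
Pkdcc, chr17:83215033-83215282: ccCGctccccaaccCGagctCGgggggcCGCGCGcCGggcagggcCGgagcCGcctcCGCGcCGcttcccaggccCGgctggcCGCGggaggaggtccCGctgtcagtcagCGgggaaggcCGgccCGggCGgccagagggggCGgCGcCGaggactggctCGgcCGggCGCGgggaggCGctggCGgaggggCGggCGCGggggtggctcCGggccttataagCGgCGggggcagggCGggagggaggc
Vrtn, chr12:84640769-84641018: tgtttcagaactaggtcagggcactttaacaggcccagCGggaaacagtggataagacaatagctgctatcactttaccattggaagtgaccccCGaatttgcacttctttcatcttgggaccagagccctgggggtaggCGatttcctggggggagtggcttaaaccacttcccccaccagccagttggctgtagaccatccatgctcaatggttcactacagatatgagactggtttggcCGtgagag
Mfap3l, chr8:60632575-60632824: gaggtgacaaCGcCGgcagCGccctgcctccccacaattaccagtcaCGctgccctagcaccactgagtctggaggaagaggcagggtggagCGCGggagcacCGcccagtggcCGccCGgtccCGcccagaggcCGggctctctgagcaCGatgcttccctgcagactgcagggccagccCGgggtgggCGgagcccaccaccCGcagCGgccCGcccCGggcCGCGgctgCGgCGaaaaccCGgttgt
The Pkdcc window had 83.2% G or C and 36 CpG, and 0.39% of the 32851 windows of this length in the RefSeq table had at least as high a G or C content. The Mfap3l window shown had 72.8% and 23 CpG, and the Vrtn window shown had 51.6% and 4 CpG, against a median over all windows of 52.4% and 6 CpG. Further Mfap3l windows had 40.4% and 42.8%, with 2 and 1 CpG. Further Vrtn windows had 57.6% and 53.2%, with 10 and 8 CpG. Of the 7 windows, 0 held the letters TGANTCA (AP-1), CCGGAAG (ETS), GCGNGGGCG (Egr) or an SRF CArG box on either strand. These occurred in 6.75%, 6.91%, 4.7% and 1.47% of all windows.

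Values are log2 of the signal minus the 75th percentile of the same array, so 0 is the 75th percentile itself. This scale belongs to each gene's own probe, and levels of different genes are not set against each other. The share of spots well above background was 54.9 to 60.0% for slide 1 arrays and 61.5 to 67.2% for slide 2 arrays. Replicate 1 of every group lay on slide 1 and replicate 2 on slide 2, and the correlation between the 2 over genes was 0.982 to 0.990. The identity of 8 of the 16 arrays rests on the deposited value table, which differs there from the attachment of the scanner files. With the value table, the gap between the 2 arrays of a group had a median of 0.38 over the 7 genes, and 9 of 56 gaps were over 1. With the attachment it had a median of 2.28, and 46 of 56 gaps were over 1. The 24h to 30m comparison below calls 6 of the 7 genes with the value table and 0 with the attachment. The choice of record was made with these data seen. The 7 genes were themselves chosen under the value table's labels, which favours small gaps there, and the gaps include the DMSO and 0h arrays. These gaps and calls are therefore not an independent check of which record is right.

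Of the 7 genes, 5 were well above background on all 16 arrays. Prss44 was below it on all 10 arrays of 0h to 4h and Mfap3l on all 8 arrays of 0h to 2h. These 2 genes entered the tests through the groups in which they were high. The arrays measure RNA from whole cultures, in which fewer cells of a type and less RNA per cell cannot be told apart.

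The values that chose the genes are given as a description. The difference of 0h minus DMSO was -3.34 ± 0.40 for Wt1, -3.33 ± 0.57 for Vrtn, -1.98 ± 0.44 for Pkdcc, -1.36 ± 0.27 for Cebpd and -1.05 ± 0.16 for Pdgfrl (log2, limma SE, 16 arrays). Prss44 was at least 6.27-fold lower at 0h and Mfap3l at least 1.66-fold lower, bounds set by the lowest signals well above background. Among the 203 genes called lower at 0h, 1.3% of those tested, the 7 ranked between 2 (Prss44) and 110 (Pdgfrl) by size, so they are not the 7 largest. Mpp3 at -1.06 ranked just before Pdgfrl and Adgrb2 at -1.04 just after it.

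**Figure D1:**
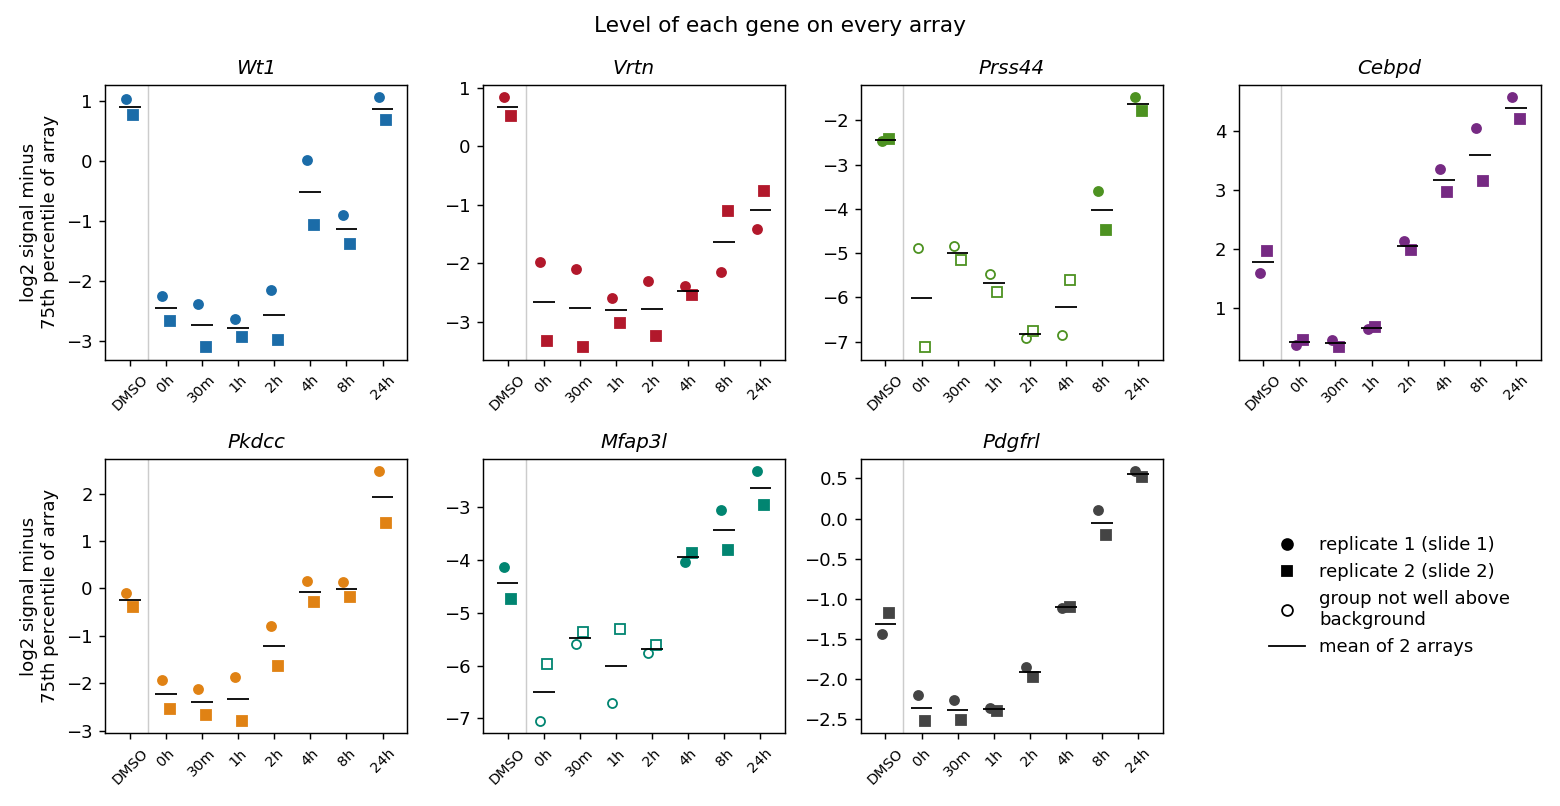
Level of each of the 7 genes on every array (y axis, log2 signal minus the 75th percentile of the array) by group (x axis, DMSO, 0h and 6 times of 4OHT). Circles are replicate 1 and squares replicate 2, lines are means of 2 arrays, and open symbols mark groups not well above background. Cebpd lies above its DMSO arrays on both arrays from 2h on, while Vrtn at 24h still lies below its DMSO arrays.

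Recovery was tested between times of 4OHT, without the DMSO and 0h arrays. Later times also had longer inhibitor treatment and culture, which the design does not separate from 4OHT. By 24h, 6 of the 7 genes were higher than at 30m by limma's moderated test (adjusted p under 0.05 over all tested genes) and 0 were lower. The background was 9.53% of all tested genes called higher. At 8h 3 of 7 were higher, against 2.09% of all genes, and at 4h 2 of 7, against 0.441%. At 2h and at 1h, 0 of 7 were called, against 0.0128% and 0% of all genes, while 796 and 223 genes had an unadjusted p under 0.05. The median difference from 30m over the 7 genes was -0.04 at 1h, 0.17 at 2h, 1.53 at 4h, 2.04 at 8h and 3.37 at 24h, and between -0.04 and 0.05 over all genes tested. With the replicate number (and so the slide) as a block, 1, 4, 5 and 7 of the 7 were called at 2h, 4h, 8h and 24h, against 0.249%, 7.44%, 7.6% and 18.3% of all genes. These background shares move with single arrays: with 1 array left out, the genes called higher numbered 10 to 121 at 4h, 42 to 590 at 8h and 563 to 1530 at 24h, against 69, 327 and 1493 with all arrays. Without any model, both arrays lay above both 30m arrays for 1 of 7 genes at 1h, 3 at 2h, 5 at 4h, 6 at 8h and 7 at 24h, against 11.7%, 17%, 23.5%, 18.6% and 28.9% of all genes. Both lay below both 30m arrays for 1 at 1h, 2 at 2h, 1 at 4h and 0 at 8h and 24h, with the share of all genes not given here. These were Prss44, and at 2h also Mfap3l, in groups where their probes were below background. Between successive times, 0 of 7 were called higher for 4h vs 2h (0% of all genes, 950 at an unadjusted p under 0.05), 1 for 8h vs 4h (0.185%) and 3 for 24h vs 8h (3.83%). With the block these became 2, 2 and 5, against 0.307%, 2.95% and 11.1% of all genes.

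**Figure D2:**
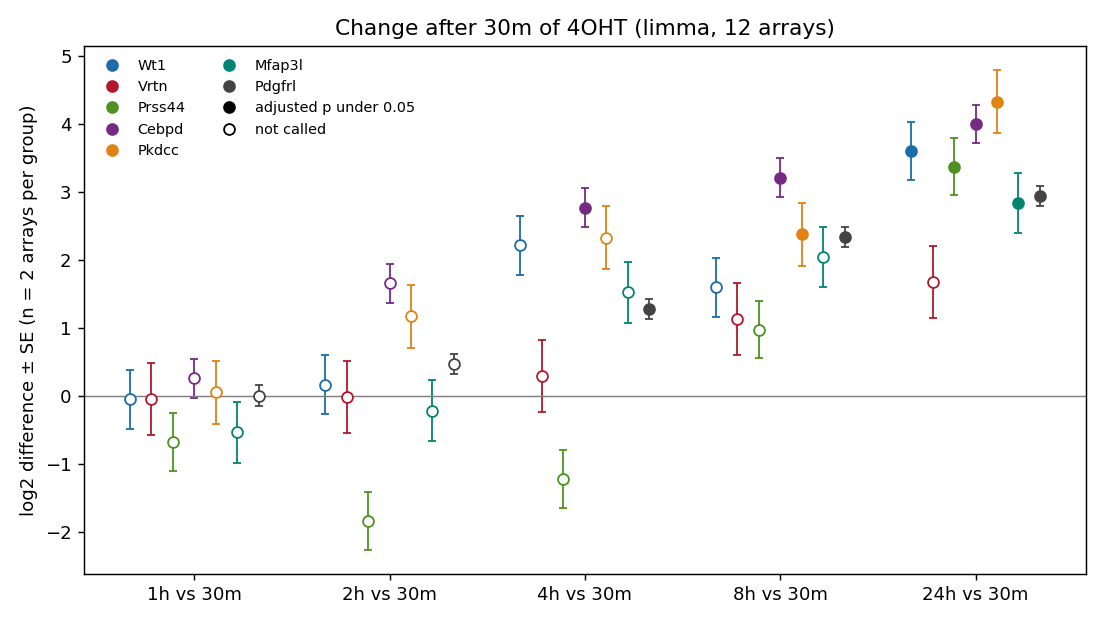
Log2 difference from 30m of 4OHT (y axis, with limma SE, n = 2 arrays per group) for each gene at 1h to 24h (x axis). Filled points have an adjusted p under 0.05 and open points do not. Cebpd and Pdgfrl are filled at 4h, Pkdcc joins them at 8h, and Vrtn is open at 24h.

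Cebpd was called at 4h and passed the DMSO level earliest. Its 2 arrays had values of 1.59 and 1.96 in DMSO, 0.38 and 0.46 at 0h, 0.46 and 0.34 at 30m, 0.65 and 0.68 at 1h, 2.13 and 1.98 at 2h, 3.36 and 2.97 at 4h, 4.06 and 3.16 at 8h, and 4.58 and 4.21 at 24h. From 2h on both arrays lay above both DMSO arrays, while 0h, 30m and 1h lay below them. Relative to 30m the level was 6.81-fold higher at 4h (2.77 ± 0.28, limma adjusted p = 0.00966), 9.25-fold at 8h (3.21 ± 0.28, adjusted p = 0.00238) and 15.97-fold at 24h (4.00 ± 0.28, adjusted p = 0.000358). At 2h it was 1.66 ± 0.28 above 30m, called with the block (adjusted p = 0.0361) and not without it (adjusted p = 0.225). The 4h call was lost without replicate 1 of 30m (limma adjusted p = 0.0787) or of 4h (adjusted p = 0.0871). As a description, the 24h level was 615% of that in DMSO.

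Pdgfrl had replicates at most 0.33 apart in every group. Its replicates were at -1.45 and -1.18 in DMSO, -2.20 and -2.53 at 0h, -2.27 and -2.51 at 30m, -2.36 and -2.40 at 1h, -1.85 and -1.98 at 2h, -1.11 and -1.11 at 4h, 0.11 and -0.21 at 8h, and 0.59 and 0.51 at 24h. Both arrays of 4h, 8h and 24h lay above both DMSO arrays, and 0h, 30m and 1h overlapped one another. Against 30m, it was 2.43-fold higher at 4h (1.28 ± 0.15, limma adjusted p = 0.0162), 5.06-fold at 8h (2.34 ± 0.15, adjusted p = 0.000881) and 7.68-fold at 24h (2.94 ± 0.15, adjusted p = 0.000117). Leaving out either array of 30m or of 4h ended the 4h call (limma adjusted p between 0.0598 and 0.119). It was also the one gene of the 7 called between 4h and 8h, at 1.06 ± 0.15 above 4h (adjusted p = 0.0477), a call that was lost without any one array other than replicate 2 of 8h (limma adjusted p between 0.0669 and 0.239). The 24h level was 364% of DMSO.

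Pkdcc stood at -0.11 and -0.40 in DMSO, -1.93 and -2.54 at 0h, -2.11 and -2.67 at 30m, -1.88 and -2.80 at 1h, -0.80 and -1.64 at 2h, 0.15 and -0.28 at 4h, 0.15 and -0.18 at 8h, and 2.47 and 1.39 at 24h. Its 4h and 8h arrays overlapped those of DMSO, and both 24h arrays lay above them. Within each slide the 4h and 8h arrays lay above the DMSO array. The difference from 30m was 2.33 ± 0.46 at 4h (limma adjusted p = 0.0631, and 0.00162 with the block), 2.38 ± 0.46 at 8h (adjusted p = 0.0369) and 4.33 ± 0.46 at 24h (adjusted p = 0.00117), which is 20.1-fold. Replicate 1 was above replicate 2 in 8 of 8 groups, and within the slides the 24h difference was 4.59 and 4.07. The 8h call held without either 24h array or replicate 2 of 8h and was lost without any one of the other 9 arrays (limma adjusted p between 0.0506 and 0.245). The step between 8h and 24h was 1.95 ± 0.46 (adjusted p = 0.0473) and was called without replicate 2 of 24h, and was lost without any one of the other 11 arrays (limma adjusted p between 0.0573 and 0.273). At 24h the level was 455% of DMSO.

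Wt1 at 24h had a mean between its DMSO arrays. Its level was 1.02 and 0.76 in DMSO, -2.24 and -2.66 at 0h, -2.38 and -3.10 at 30m, -2.63 and -2.93 at 1h, -2.15 and -2.99 at 2h, 0.02 and -1.06 at 4h, -0.89 and -1.39 at 8h, and 1.05 and 0.67 at 24h. One 24h array lay above both DMSO arrays and the other below both, and all arrays of 0h to 2h lay below all arrays of 4h to 24h. Replicate 1 was above replicate 2 in 8 of 8 groups. On slide 1 the 24h and DMSO arrays were at 1.05 and 1.02, and on slide 2 at 0.67 and 0.76. Relative to 30m, Wt1 was 12.1-fold higher at 24h (3.60 ± 0.43, limma adjusted p = 0.00171). At 4h it was 2.22 ± 0.43 above 30m (adjusted p = 0.0617, and 0.00185 with the block) and at 8h 1.60 ± 0.43 above it (adjusted p = 0.0885, and 0.00347 with the block). The 8h and 4h arrays overlapped, with a difference of -0.62 ± 0.43 (limma adjusted p = 0.644) that was -0.91 and -0.33 within the slides. Between 8h and 24h it rose by 2.00 ± 0.43 (adjusted p = 0.035). Leaving out either array of 1h, 8h or 24h ended that call (limma adjusted p between 0.06 and 0.205). The block called the step between 2h and 4h too (2.05, limma adjusted p = 0.0128, against 0.41 without it). At 24h Wt1 was at 98.1% of DMSO, a difference of -0.03 ± 0.40.

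Prss44 came back late. Its DMSO arrays stood at -2.46 and -2.43, its 8h arrays at -3.59 and -4.47 and its 24h arrays at -1.48 and -1.80, while at 0h, 30m, 1h, 2h and 4h its probe was not well above background, with values between -7.13 and -4.85. Both 24h arrays lay above both DMSO arrays, and both 8h arrays lay below them. The 24h level was at least 9.36-fold above 30m (limma adjusted p = 0.00205) and 5.26-fold above 8h (2.39 ± 0.42, adjusted p = 0.018). The second of these calls was lost without replicate 1 of 24h (limma adjusted p = 0.126) or replicate 2 of 8h (adjusted p = 0.0793). At 8h it was at least 1.78-fold above 30m and was not called (limma adjusted p = 0.253). The 8h level was at least 1.82-fold above 4h, and that step was called with the block (limma adjusted p = 0.0396) and not without it (adjusted p = 0.0802). Adjusted p-values given beside a bound are those of the fitted difference, which uses the signals below background. The 24h level was 175% of DMSO, a difference of 0.81 ± 0.62, against 0.49 ± 0.16 with normexp background correction. The SE of 0.62 pools the spread of all groups, including those below background. Replicates were 0.04 apart in DMSO and 0.31 at 24h, but 2.23 at 0h.

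Mfap3l stood at -4.14 and -4.74 in DMSO, at -4.04 and -3.87 at 4h, at -3.06 and -3.82 at 8h and at -2.33 and -2.96 at 24h, and was not well above background at 0h, 30m, 1h or 2h, with values between -7.05 and -5.31. All arrays of 4h to 24h lay above both DMSO arrays. Its 24h level was at least 4.74-fold above 30m (limma adjusted p = 0.00455). At 8h it was at least 2.73-fold above 30m, called with the block (adjusted p = 0.0285) and not without it (adjusted p = 0.0508). At 4h it was at least 1.91-fold above 30m and not called (limma adjusted p = 0.144). These adjusted p-values too are those of fitted differences that use signals below background. As a description, it was at 140% of DMSO at 4h and 348% at 24h, where the difference from DMSO was 1.80 ± 0.48, against 0.59 ± 0.19 with normexp background correction.

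Vrtn was the gene with the lowest share of its DMSO level at 24h, 29.4%. The arrays read 0.84 and 0.53 in DMSO, -1.97 and -3.33 at 0h, -2.09 and -3.43 at 30m, -2.58 and -3.01 at 1h, -2.29 and -3.25 at 2h, -2.38 and -2.54 at 4h, -2.15 and -1.11 at 8h, and -1.41 and -0.75 at 24h. Both 24h arrays lay above both 30m arrays and below both DMSO arrays, and the 4h arrays fell within the range of 30m. The 24h difference from 30m was 1.68 ± 0.53 and was not called (limma adjusted p = 0.0594). It was called with the block (adjusted p = 0.0469) and without replicate 1 of 30m (2.35 ± 0.54, adjusted p = 0.0421). With normexp background correction it was 1.14 ± 0.31 and was called too (limma adjusted p = 0.0304). Its 2 arrays at 30m were 1.34 apart, and the difference was 0.68 on slide 1 and 2.68 on slide 2. At 8h it was 1.13 ± 0.53 above 30m (limma adjusted p = 0.289), with -0.06 and 2.32 within the slides.

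**Figure D3:**
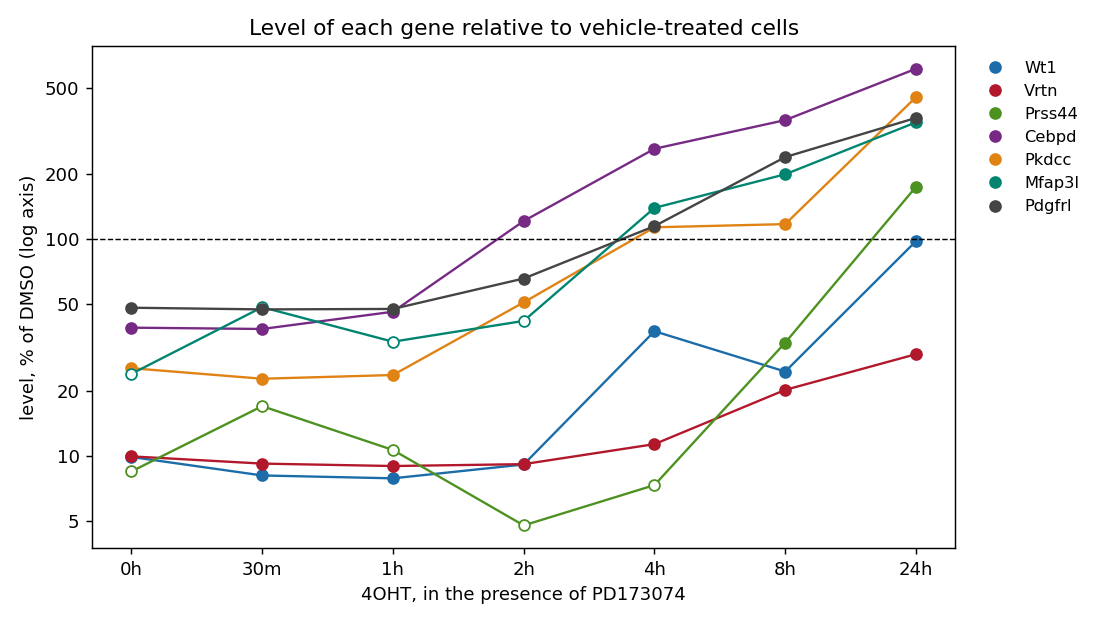
Mean level of each gene as a percent of its mean DMSO level (y axis, log scale, dashed line at 100%) at 0h and 6 times of 4OHT (x axis). Open points are groups not well above background. At 24h Cebpd is at 615%, Wt1 at 98.1% and Vrtn at 29.4%.

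Set against DMSO at 24h, 5 of the 7 genes had a higher mean and 2 a lower one. The differences were 2.62 ± 0.27 for Cebpd, 2.18 ± 0.44 for Pkdcc, 1.87 ± 0.16 for Pdgfrl, 1.80 ± 0.48 for Mfap3l and 0.81 ± 0.62 for Prss44. For Vrtn the difference was -1.76 ± 0.57. These carry no p, because DMSO arrays chose the genes. Each SE pools the spread of all groups, which for Prss44 and Mfap3l include groups below background. At 4h the level was 262% of DMSO for Cebpd, 115% for Pdgfrl, 114% for Pkdcc, 37.6% for Wt1 and 11.3% for Vrtn, and differences between genes were not tested.

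**Figure D4:**
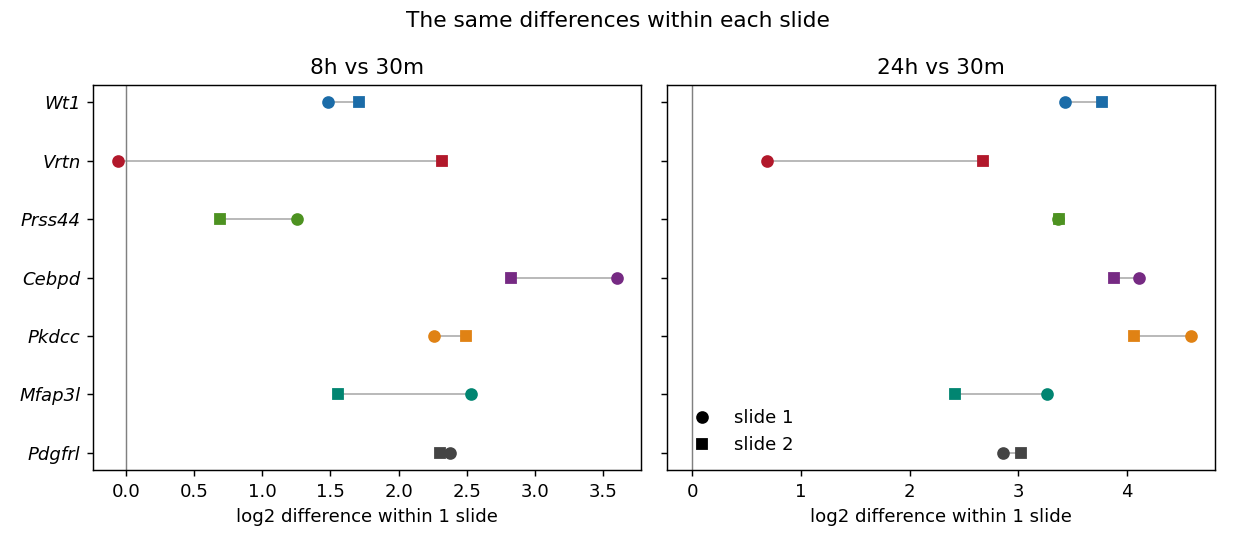
Log2 difference from 30m at 8h (left) and 24h (right) on each slide (x axis) for the 7 genes (y axis). Circles are slide 1 and squares slide 2. At 24h the difference is above 0 on both slides for all 7 genes, with the slides furthest apart for Vrtn at 0.68 and 2.68.

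The time courses fell along a range of likeness. Over the 8 group means, Pearson's r between 2 of the 7 genes ran from 0.37 (Vrtn with Cebpd) to 0.96 (Mfap3l with Pdgfrl), and all points share the same arrays. These means include the DMSO and 0h groups that chose the genes. Over the 6 stimulated groups alone r ran from 0.58 (Prss44 with Cebpd) to 0.97 (Mfap3l with Pdgfrl), and it was 0.86 for Vrtn with Cebpd. Among 4781 genes whose group means span at least 1 on the log2 scale, the closest to Vrtn was Pim2, a serine/threonine kinase gene, at an r of 0.993, and the closest to Pdgfrl was Hmces at 0.999. Genes close to Cebpd included Fjx1 at 0.989 and Dusp2, a phosphatase gene of the Erk pathway, at 0.988. Wt1 was closest to Gm5820 (0.984), Prss44 to Fut1 (0.980), Pkdcc to Naf1 (0.987) and Mfap3l to Slc7a8 (0.979). These are descriptions over 8 groups.

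Feedback and ETS genes of the Erk pathway were counted beside the 7 genes. Of 18 such genes, 5 were higher than 30m at 4h, 8 at 8h and 14 at 24h, against 0.441%, 2.09% and 9.53% of all genes. At these times 0 were lower, and the median was 2.69 at 24h. At 8h Phlda1 was 6.10 ± 0.51 above 30m (limma adjusted p = 0.00238), Spry4, a feedback inhibitor of receptor signalling, 4.94 ± 0.36, and Dusp4, a phosphatase of Erk, 4.65 ± 0.72. With the block 15 and 17 of the 18 were called higher at 4h and 8h, against 7.44% and 7.6% of all genes. Spry4 was itself among the largest falls at 0h, with rank 3, so this list is not independent of the choice of the 7.

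Relatives of the 7 genes by family were counted in the same fit. In the C/EBP family 0 of 6 were called at 8h and 3 of 6 were higher at 24h, namely Ddit3 (2.40 ± 0.62, limma adjusted p = 0.0297), Cebpe (1.93 ± 0.30, adjusted p = 0.00427) and Cebpb (1.42 ± 0.27, adjusted p = 0.009). Of the 4 Egr genes, whose zinc fingers resemble those of Wt1, 2 were higher at 4h, 8h and 24h, Egr1 and Egr2, with Egr1 3.36 ± 0.63 above 30m at 8h (limma adjusted p = 0.0318). Egr2 was well above background on 10 of 16 arrays. Of 5 tested proteases of the Prss44 family of 7, 1 was higher at 4h, 8h and 24h, namely Prss46, which was well above background on 4 of 16 arrays. Among 9 secretory pathway kinases related to Pkdcc, 1 was higher at 8h and 24h, Fjx1 (2.71 ± 0.45 at 8h, limma adjusted p = 0.0245), and 1 was lower at 24h, Dipk1a.

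Of 5 tested PDGF ligands and receptors, 1 was lower at 8h, Pdgfc, a ligand (-1.22 ± 0.16, limma adjusted p = 0.0124). With the block 2 were lower at 8h, Pdgfc and the receptor gene Pdgfra (limma adjusted p = 0.048). Pdgfra was well above background on only 2 arrays, with means of -5.93 at 30m, -6.82 at 8h and -3.74 at 24h. Its 8h difference therefore compares signals not well above background, and its 24h difference uses such signals at 30m. At 24h 3 were lower, the ligand genes Pdgfa (-1.83), Pdgfb (-1.16) and Pdgfc (-0.75), and 1 was higher, the receptor gene Pdgfra. Of 6 microfibril-associated genes 0 were called at 8h and 24h (with the block, 1 lower at 8h, and 1 higher and 2 lower at 24h). Of 5 partners and cofactors of Wt1, 0 were called at 8h and 3 were lower at 24h. The largest difference at 8h was that of Pawr (-0.61 ± 0.17, limma adjusted p = 0.0953, and 0.0417 with the block). The background for these lists was 2.09% of genes higher and 1.11% lower at 8h, and 9.53% higher and 10.3% lower at 24h. With the block 7.6% were higher at 8h and 18.3% at 24h, and 1365 and 2968 of 15660 genes were lower.

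Markers of the labelled cell type were present, and markers of some other cell types moved with 4OHT. All 10 embryonic stem cell markers were well above background on all 16 arrays. Their summed level (in units of each array's 75th percentile) was 658 to 696 at 24h, against 741 to 820 at 30m. At 24h 1 of the 10 was higher and 4 were lower than at 30m, against 9.53% and 10.3% of all genes. Nanog was at -4.70 ± 0.88 (limma adjusted p = 0.00884) and Esrrb at -1.96 ± 0.41. For other cells known for Wt1, 0 of 5 mesothelium and kidney markers were called. With the block 1 was higher at 8h and 1 at 24h, against 7.6% and 18.3% of all genes. The sum of the 5 was 1.74 to 2.23 at 24h, against 1.22 to 1.39 at 30m.

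For the counts at 24h that follow, the background was 9.53% of all genes higher and 10.3% lower than at 30m. With the block it was 18.3% higher, and 2968 of 15660 genes lower. Of 6 tested fibroblast markers 2 were higher at 24h, and the sum was 14.2 to 15.1, against 3.02 to 3.44 at 30m. Thy1 was 2.38 ± 0.20 higher (limma adjusted p = 0.000512), the collagen genes Col1a1, Col1a2 and Col3a1 were not called, and Lum was below background on all 16 arrays. Of 6 primitive endoderm markers 1 was higher, Gata6, and the sum was 1.26 to 3.18 at 24h, against 0.488 to 0.504 at 30m, with Gata4, Sox17, Foxa2, Sox7 and Dab2 not called (1 lower with the block). Of 5 tested trophoblast markers 2 were higher, Cdx2 (well above background on 7 of 16 arrays) and Hand1 (12 of 16), with 1 lower with the block. Tfap2c and Gata3 stood at -1.33 ± 0.52 and -0.80 ± 0.49. The trophoblast sum was 9.54 to 11.7 at 24h, against 17.3 to 31.1 at 30m. Of 4 tested mesoderm markers 1 was higher, Mesp1, which was well above background on 4 of 16 arrays. The mesoderm sum was 9.42 to 10.1 at 24h, against 9.65 to 12.2 at 30m. Of 3 germ cell markers 1 was higher and 1 lower, and the sum was 2.96 to 3.66 at 24h, against 4.51 to 5.05 at 30m. Of 4 neural markers 2 were lower (Pax6 and Tubb3), and the sum was 3.81 to 4.30 at 24h, against 10.1 to 13.8 at 30m. The part of such cells in the 24h values of the 7 genes was not tested.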

How the data were processed

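RNA was read in 1 colour on an Agilent mouse array with mm9 probe annotation, using Feature Extraction 11.0.1.1, per the file headers. The deposited intensity of each spot had been background-corrected by the authors' scanner software, per the file headers. The labels name Cy5, while the files hold a green channel. For 4h, 1 label says minutes, but title and time point say 4h, which was used. Every scanner file equalled 1 column of the authors' deposited value table within 0.6%, with at most 4.99% of spots equal in any other column.

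From these, log2 of the deposited processed intensity minus each array's 75th percentile (441 to 653) was computed. Control and outlier spots (147 to 240 per array) were left out and 0 spots were saturated. Of 55681 probes, 27656 matched 1 RefSeq gene by accession and 28025 none. Each gene was read by its brightest probe and tested if that probe passed the scanner's background test on both arrays of at least 1 group. Differences were fitted with limma 3.58.1 (R 4.3.3), with Benjamini-Hochberg adjustment over 15660 genes. The tests used the 12 arrays of 30m to 24h (6 residual degrees of freedom), and differences from DMSO and 0h used 16 arrays (8) with no p. A gene below background in a group has a bound there ("at least"): the bright mean is divided by the higher of the dim probe's own signal and the weakest signal that passed the background test on that array. The adjusted p beside a bound is that of the fitted difference of the probe's own values, and the bound itself was not tested.

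The 7 genes, the lists and the markers were chosen with earlier results of these data known, and all 7 are named. For each, genes with the highest r were named among those spanning at least 1 (1 such gene is not reported here), and from lists the plan was to name those with the largest differences at 8h. The text does not always follow that order: others named from lists or marker sets, and those passed over, were chosen after their values were seen. Replicate numbers pair the samples: arrays with the same replicate number share a slide, and all 28 pairs of groups had deviations that correlated (0.33 to 0.66). On simulated data for 24h vs 30m (15628 genes), 32%, 84%, 94% and 90% of 50 genes changed by 1, 2, 3 and 4 on the log2 scale were recovered, with 7 false calls. The simulation had independent noise on each array, no slide effect and far fewer changed genes than the real comparison called. Its shares therefore need not hold for the real arrays. The scanner files used here gave no mean signal, so the normexp alternative (offset 50) used median signals, which the plan had not foreseen. Other alternatives were the scaling, the value table, probe rules, a replicate block, a 2-fold minimum and leaving out each array.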

Additional observations from a re-analysis of the deposited data

How the results depend on the processing

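With samples taken from the scanner files' attachment, 0 of the 7 genes were called at 4h, 8h or 24h against 30m and 0 between successive times. For the genes called in the main fit, the differences from 30m there were -0.54 for Cebpd and -0.74 for Pdgfrl at 4h. At 8h they were -0.51 for Cebpd, -0.44 for Pkdcc and -0.28 for Pdgfrl. Wt1, not called in the main fit at 4h or 8h, also had negative differences there at both times. The median over the 7 genes as attached was -0.59 at 4h, -0.44 at 8h and 0.24 at 24h. With the replicate block, 1 was called at 2h, 4 at 4h, 5 at 8h, 2 for 4h vs 2h, 2 for 8h vs 4h and 5 for 24h vs 8h, where the step was called for Cebpd (adjusted p = 0.0382) and Pdgfrl (adjusted p = 0.0103) too, and it ended no call. The fit of all 16 arrays called 4 at 4h and 5 at 8h. Median centring of each array called 1 at 4h, 0 for 8h vs 4h and 1 for 24h vs 8h, and it moved the median of all genes for 4h vs 2h to 0.11, against -0.04. Quantile normalization called 0 for 8h vs 4h and 0 for 24h vs 8h, the deposited value table's signals called 0 for 8h vs 4h, and no filter on dim probes called 0 for 8h vs 4h and 1 for 24h vs 8h. Leaving out each of the 12 arrays in turn gave 0 to 2 called at 4h, 2 to 4 at 8h, 6 to 7 at 24h, 0 to 1 for 8h vs 4h and 0 to 2 for 24h vs 8h, against 3 with all arrays.

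Over all genes, 24h vs 30m had 1493 higher and 1614 lower, 2869 and 2968 with the block, 808 and 1082 with median centring, and 391 and 20 as attached. For 8h vs 30m it was 327 and 174, 1190 and 1365 with the block, 536 and 514 in the fit of all 16 arrays, 189 and 80 with median centring and 227 and 101 with no filter. For 4h vs 30m the counts were 69 and 30, 1165 and 927 with the block, 241 and 237 in the fit of all 16 arrays, 38 and 7 with median centring, 123 and 92 with quantile normalization and 113 and 54 with normexp. With 1 array left out, 4h vs 30m had 10 higher and 2 lower (replicate 1 of 30m) to 121 and 72 (either 8h array), and 15 and 1 without replicate 1 of 4h. For 8h vs 30m it was 42 and 6 (replicate 1 of 30m) to 590 and 734 (replicate 2 of 8h), and for 24h vs 30m 563 and 546 (replicate 1 of 24h) to 1530 and 1718 (either 8h array). The cause of these differences was not tested.

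Of 1232 values for the 7 genes' tests under the alternatives, 1129 were counted as the same, 70 lost a call and 28 gained one. A further 5, called in the main fit, changed sign. The 1129 kept their side of the threshold but include changes of sign where neither fit called the gene. For Wt1 at 1h the difference was -0.04 in the main fit and 0.04 with normexp. Normexp, which compresses dim probes, called all 7 genes at 24h vs 30m, at 2.84 for Wt1, 1.14 for Vrtn, 1.51 for Prss44, 3.84 for Cebpd, 3.73 for Pkdcc, 0.96 for Mfap3l and 2.37 for Pdgfrl. With 2 arrays per group the number of arrays limits the precision, and signal over background limits Prss44 and Mfap3l.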
